A study of Homo sapiens with 4 samples.

Results

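The genes described here encode the building blocks of the actin cytoskeleton and a few of the proteins that reshape it. They are the 2 cytoplasmic actins ACTB and ACTG1, the actin monomer-binding protein PFN1, the filament-severing cofilins CFL1 and CFL2, the myosin light chain kinase MYLK, the regulatory light chain MYL9, the tropomyosin TPM1, and the paralogues MARCKS and MARCKSL1. The members were the 10 gene symbols of that list among the 30982 gene names on the arrays, and every one of their 24 probe designs out of 41000 was kept. CFL2, MYLK and MARCKS were chosen by their ratio on the FaDu miR-489 array, which put them in the study's list of genes that fell there, and ACTB was selected on being above 0 on all arrays. Their values on those arrays are therefore a description and carry no test.

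FaDu is a line from a hypopharyngeal squamous cell carcinoma and HSC3 a line from a squamous cell carcinoma of the tongue. Each was transfected with miR-489, with miR-504 or with a control miRNA, and total RNA was compared 72 h after transfection. On each of 4 two-colour oligonucleotide arrays 1 miRNA transfectant, labelled with Cy5, was set against the control transfectant of the same line, labelled with Cy3, so that there was 1 array per line and miRNA. Every group shared the transfection step, the dyes were not swapped, and a transfectant is a mixture in which the share of cells that took up the miRNA was not measured. Fewer cells with a transcript and less transcript per cell cannot be told apart in such RNA.

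Actin filaments grow from monomers that profilin delivers, and cofilins sever old filaments and return monomers to the pool. Cofilin is switched off by LIM and TES kinases, which phosphorylate it, and switched on by slingshot phosphatases. In non-muscle and smooth muscle cells myosin II pulls on the filaments once its regulatory light chain has been phosphorylated, for which MYLK and the ROCK kinases are best known, and tropomyosins run along the filament and govern which proteins may bind it. MARCKS proteins hold the phospholipid PIP2 at the plasma membrane and crosslink actin there. A microRNA pairs through its seed, bases 2 to 8, with messenger RNAs and lowers their level or translation.

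The mature miRNAs are shown because every ratio below compares a miR-489 or miR-504 transfectant with a control transfectant. The labels give no arm, so the arms held by RefSeq (GRCh38.p14) are printed, 5′ to 3′, with the seed in capitals. The miR-489 locus lies at chr7:93483947-93483968 on the minus strand, and the locus of the 5p arm of miR-504 at chrX:138667760-138667781 on the minus strand.
hsa-miR-489-3p: gUGACAUCacauauacggcagc
hsa-miR-504-5p: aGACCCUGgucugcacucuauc
hsa-miR-504-3p: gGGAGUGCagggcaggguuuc
The 3 seeds differ from each other. Pairing of these seeds with the members' transcripts was not analysed here.

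Each array held 43376 spots of gene probes. Between 118 and 137 spots an array were outliers in a channel and were left out, and no spot was saturated. Of the probes, 58.2% to 59.2% were well above background in Cy3 and 61.2% to 62.6% in Cy5. Ratios are log2 of the background-subtracted median Cy5 over Cy3 signal, centred on each array's median, so a value of -1 is a 2-fold lower signal than in the control transfectant. Where 4 values follow each other in array order, the first 2 belong to FaDu and the last 2 to HSC3, with miR-489 before miR-504 in each line. Probes printed in several copies had a spread between spots of 0.0887 to 0.108 (SD, log2) on an array. This is the only error available within 1 array, and it covers spotting and scanning but no biology. Of 7 squamous markers, 6 (KRT5, KRT14, KRT17, TP63, CDH1 and SFN) were well above background on all arrays, and no probe was named KRT6A. The smooth muscle markers MYH11, DES and CNN1 had control signals of 11 to 26 on every array and were never well above background, whereas the fourth, SMTN, was. None of 4 fibroblast markers (COL1A1, COL1A2, DCN, LUM) and none of 3 endothelial markers (PECAM1, VWF, CDH5) reached that level on all arrays. Of 3 leukocyte markers CD79A did, and PTPRC and CD3E did not.

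Among the members, CFL2 was lower than control in the miR-489 transfectants (0.42-fold in FaDu and 0.512-fold in HSC3, by its brighter probe) and higher in the miR-504 transfectants (1.84-fold in both). MARCKS was 0.163-fold to 0.303-fold of control after both miRNAs in both lines. The cofilin paralogue CFL1 and the MARCKS paralogue MARCKSL1 did not follow them. ACTB and ACTG1 gave ratios that differed from probe to probe by up to 1.01 log2 units on a single array. MYLK stood at -2.42 on the FaDu miR-489 array by 1 of its 2 probes and at -0.04 by the other.

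**Figure D1:**
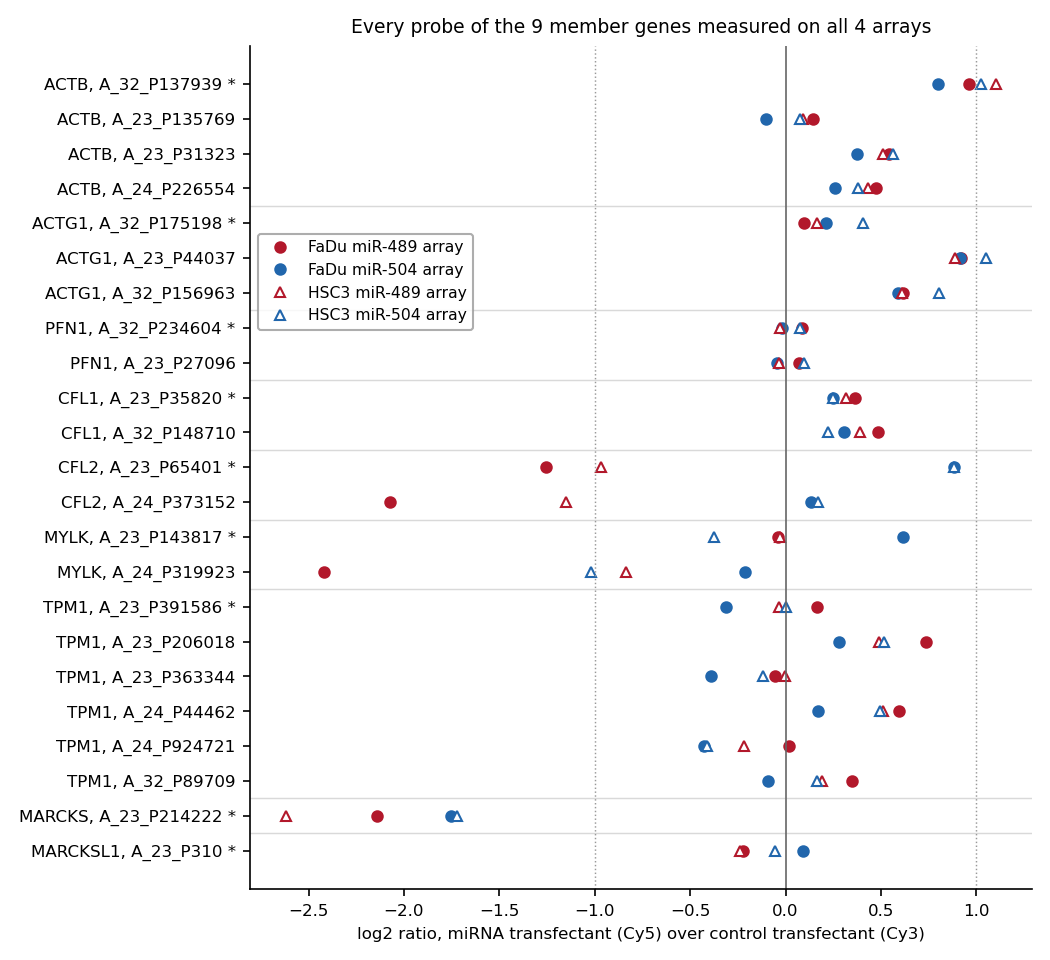
The log2 ratio of miRNA transfectant over control transfectant (horizontal axis) for each probe of the 9 members measured on all arrays (rows; the asterisk marks the brightest probe of a gene). Circles are FaDu and triangles HSC3 arrays, red is miR-489 and blue miR-504, and dotted lines mark 2-fold. The red and blue points of CFL2 lie apart, from -2.07 to -0.97 and from 0.13 to 0.88, whereas all 4 points of MARCKS lie at -1.72 or below.

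CFL2 encodes the cofilin best known from muscle, and CFL1 the cofilin of most other cells. With the brighter CFL2 probe (A_23_P65401), the control signal was 989 and the miR-489 signal 621 on the FaDu array, and 1752 and 1346 on the HSC3 array. On the miR-504 arrays the control signals were 882.5 in FaDu and 1643 in HSC3, against 2555 and 4122 in the miR-504 transfectants. The log2 ratios were -1.25 and -0.97 after miR-489 and 0.88 and 0.88 after miR-504, in FaDu and HSC3 in turn. The miR-489 values of both lines thus lay below both miR-504 values, by 2.14 in FaDu and 1.85 in HSC3.

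The second CFL2 probe (A_24_P373152), 1780 bases away towards the 3′ end of the gene on chromosome 14, gave -2.07 in FaDu and -1.15 in HSC3 after miR-489. After miR-504 it gave 0.13 and 0.17. Its control signals were weaker, at 226.5, 169.5, 391 and 611 in array order. Both probes had the miR-489 arrays below the miR-504 arrays, with FaDu miR-489 lowest, but their ratios differed in level, the brighter one being 0.18 to 0.82 higher on the same array. In the deposited ratios (log2) of the FaDu miR-489 array, the second CFL2 probe stood at -2.19, MARCKS at -2.29 and the MYLK probe A_24_P319923 at -2.33. The study lists the same numbers for these genes as folds, so its cut-off, worded as a fold, was read here as a log2 ratio. On that reading these are the member values inside it. The brighter CFL2 probe, at -1.42, was the nearest one outside it, and would be inside if the cut-off were a plain fold.

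The miR-504 arrays had no part in the choice of CFL2, and there the brighter probe was higher than control in both lines. The mean log2 ratio of the 2 arrays was 0.88 ± 0.0976 (SE; limma with the lines as replicates, adjusted p = 0.00266). The SE of this fit pools the spread of the miR-504 and the miR-489 pair, so that for CFL2, MYLK and MARCKS it draws on the value by which the gene was chosen. With either miR-504 array left out, the spread of a gene comes from the miR-489 pair alone. For CFL2 that pair holds the value by which it was chosen, so such a fit is no further support. The second probe had 0.15 ± 0.216 (limma adjusted p = 0.582) and was not called. Centring on total signal instead of the median brought this second probe to -0.04 in FaDu and -0.01 in HSC3.

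CFL1 moved little by comparison. Its brighter probe (A_23_P35820) gave 0.36, 0.25, 0.32 and 0.25 in array order, and its other probe (A_32_P148710) gave 0.48, 0.30, 0.39 and 0.22. All 8 values were above 0 in each of the 8 ways of processing, although by as little as 0.03 with total-signal centring. The miR-489 and miR-504 arrays did not differ detectably for CFL1. The difference was 0.09 for the brighter probe (95% interval -0.18 to 0.36, limma adjusted p = 0.715) and 0.17 for the other (-0.11 to 0.46, limma adjusted p = 0.472). Within an array, CFL2 minus CFL1 by the brighter probes was -1.62 and -1.29 after miR-489 and 0.63 and 0.63 after miR-504. By these probes the 2 cofilins changed unequally on every array and in opposite order under the 2 miRNAs. The order after miR-504 depended on the CFL2 probe. The second CFL2 probe, at 0.13 in FaDu and 0.17 in HSC3, lay below both CFL1 probes on each miR-504 array. With the mean of both probes of each gene the miR-504 differences were 0.23 and 0.29 and the miR-489 differences -2.08 and -1.41.

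**Figure D2:**
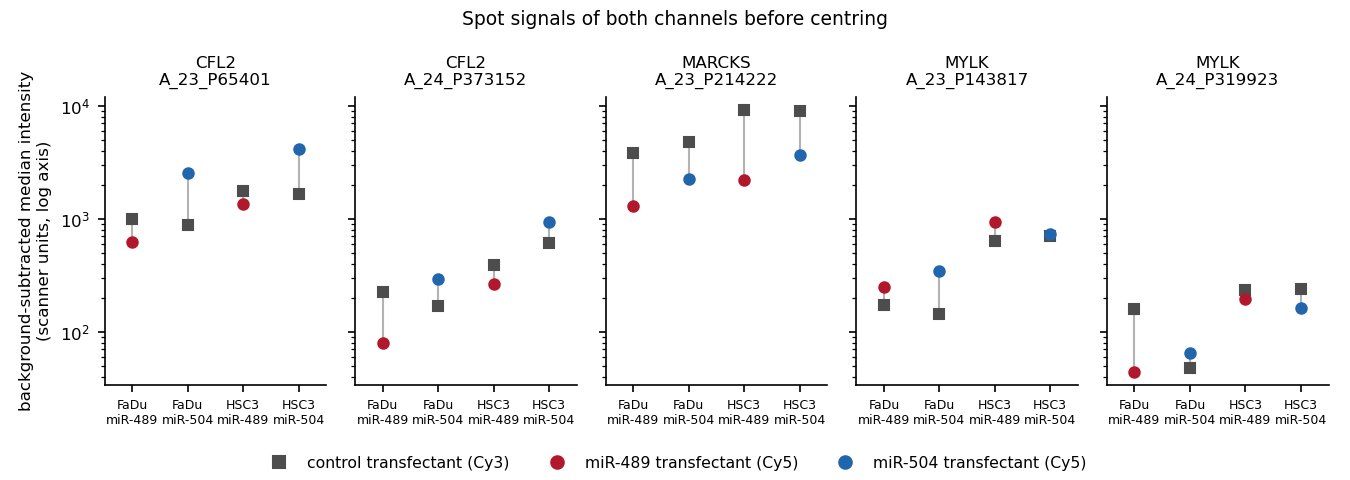
Background-subtracted median signals (vertical axis, scanner units on a log axis) of the control transfectant (grey squares) and the miRNA transfectant (red for miR-489, blue for miR-504) on each array for the probes of CFL2, MARCKS and MYLK, before centring. The grey line joins the channels of an array. The MYLK probe A_24_P319923 has its 2 FaDu control signals at 159 and 48, whereas the control signals of MARCKS are 3846 and 4793 in FaDu.

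MARCKS, measured by 1 probe (A_23_P214222) on chromosome 6, was bright in every control, at 3846 and 4793 in FaDu and 9058 and 8916 in HSC3. The transfectants gave 1304 after miR-489 and 2230 after miR-504 in FaDu, and 2212 and 3676 in HSC3. The log2 ratios were -2.14 and -1.75 in FaDu and -2.62 and -1.72 in HSC3 after miR-489 and miR-504. MARCKS was thus at least 3-fold lower than control on all arrays and lowest after miR-489 in each line, by 0.39 in FaDu and 0.89 in HSC3. On the miR-504 arrays, which had no part in its choice, the mean log2 ratio was -1.74 ± 0.129 (SE with the spread pooled over all 4 arrays, limma adjusted p = 0.00145). As for CFL2, a fit without 1 of the miR-504 arrays is no further support for MARCKS. Of 15724 genes measured on all arrays 262 were at least 2-fold lower on every one, and MARCKS was the one member among them. Of 16748 genes assessed for the other direction 174 were at least 2-fold higher on every array, with 0 members.

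MARCKSL1, the smaller relative of MARCKS, had control signals of 284, 302, 191 and 174 in array order. Its log2 ratios were -0.23, 0.09, -0.24 and -0.05. After miR-489 the values were lower than after miR-504 in both lines, by 0.31 and 0.19, which was not called (mean -0.25, 95% interval -0.54 to 0.04, limma adjusted p = 0.328). After miR-504 its mean was 0.02 (limma adjusted p = 0.867). MARCKS minus MARCKSL1 ranged from -2.38 to -1.67 over the 4 arrays.

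**Figure D3:**
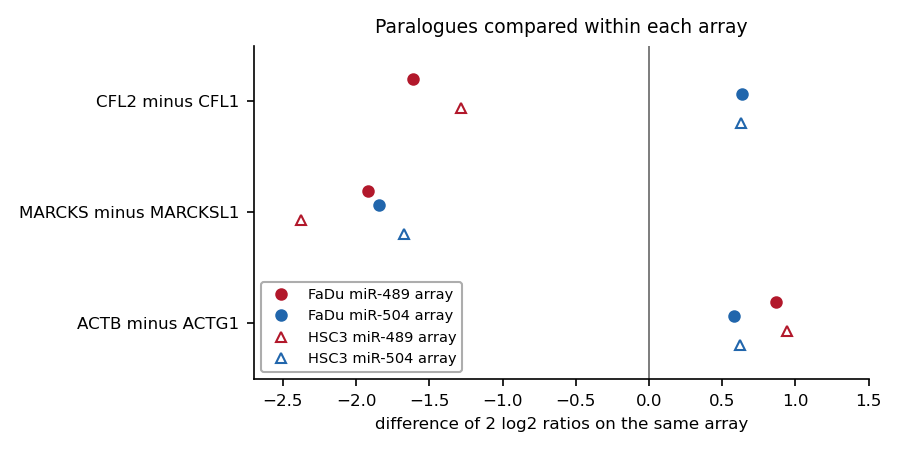
Difference between the log2 ratios of 2 paralogues on the same array (horizontal axis), for 3 pairs of genes by the brightest probe of each (rows), with symbols as for the plot of all probes. CFL2 minus CFL1 is negative on the miR-489 arrays and 0.63 on the miR-504 arrays. On the latter the second CFL2 probe, not drawn here, lies below both CFL1 probes. MARCKS minus MARCKSL1 is at most -1.67 on all arrays. ACTB minus ACTG1 lies between 0.58 and 0.94, a sign that turns when all probes of the 2 genes are averaged.

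MYLK, on chromosome 3, phosphorylates the regulatory light chain of myosin II. Its 2 probes lie 1913 bases apart and disagreed. The brighter one (A_23_P143817) gave -0.04 and -0.03 after miR-489 in FaDu and HSC3, and 0.61 and -0.37 after miR-504. The other one (A_24_P319923) gave -2.42, -0.21, -0.84 and -1.02 in array order. Over the 8 ways of processing the first of these values ranged from -2.63 to -1.35 and the second from -0.38 to 0.15. The FaDu miR-489 value of that second probe rested on a control signal of 159 against a transfectant signal of 44.5, whereas on the FaDu miR-504 array the control signal was 48 and the transfectant signal 65. The 2 FaDu control signals of this probe were 1.71 apart (log2, after scaling to the array's median), as compared with 0.24 for the brighter MYLK probe and with at most 0.42 in FaDu for any other member probe apart from that of MYL9. The control signal was therefore the larger part of the difference between the 2 FaDu arrays at this probe. Neither MYLK probe was called after miR-504, with means of 0.12 ± 0.229 (limma adjusted p = 0.687) and -0.62 ± 0.396 (limma adjusted p = 0.243). With the HSC3 miR-504 array left out, the brighter probe rests on the FaDu value of 0.61 alone. Its spread then comes from the miR-489 pair, which holds the array by which MYLK was chosen, so that fit is no further support.

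MYL9, a regulatory light chain of smooth muscle and non-muscle myosin and a substrate of MYLK, was near the background. Its control signals were 41, 29.5, 21.5 and 23 and its transfectant signals 42, 24, 5.5 and 11 in array order. The control was well above background on the FaDu miR-489 array only, so that MYL9 entered no test and no fold change is given.

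ACTB, the beta-actin commonly used as a loading reference, was read by 4 probes along 1 stretch of chromosome 7. The brightest and most 3′ probe (A_32_P137939) gave 0.96, 0.80, 1.10 and 1.02 in array order. Probe A_23_P31323 gave 0.37 to 0.56 and probe A_24_P226554 gave 0.26 to 0.47. Probe A_23_P135769, printed 10 times on each array, gave 0.15 ± 0.0398, -0.10 ± 0.0364, 0.09 ± 0.0135 and 0.07 ± 0.0121 (SD of 10 spots, in array order). The brightest probe was 0.82 to 1.01 above this one on the same array although only 394 bases away. That gap exceeded the spread between copies of a probe on every array.

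Whether ACTB was above or below control therefore depended on the probe and on the centring. Of its 16 values, 15 were above 0 with median centring, 12 with loess or total-signal centring and 10 in the deposited ratios. In the deposited ratios probe A_23_P135769 was below 0 on all arrays, at -0.26 to -0.09, and the other 3 were above 0 on every array except that A_23_P31323 and A_24_P226554 were at -0.08 and -0.06 after miR-504 in FaDu. The brightest probe was above 0 in each setting, from 0.37 to 1.26.

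ACTG1, the gamma-actin whose protein differs from beta-actin at only a few residues, showed the same kind of spread. Its brightest probe (A_32_P175198) gave 0.09, 0.21, 0.16 and 0.40 in array order. Probe A_23_P44037 gave 0.89 to 1.05 and probe A_32_P156963 gave 0.59 to 0.80. On the miR-504 arrays all 3 were higher than control, by 0.31, 0.98 and 0.70 (limma adjusted p = 0.0343, 0.00158 and 0.00354). This comparison called 26.2% of all probes higher and 23.4% lower, and does not remove a dye effect of a probe. With loess or total-signal centring or in the deposited ratios the brightest probe was no longer called, and its mean was -0.15 in the deposited ratios, whereas the other 2 remained called. The actins share much coding sequence and have many processed copies in the genome. How much of a signal came from another actin was not tested. By the brightest probes ACTB minus ACTG1 was 0.58 to 0.94 on the 4 arrays, but with the mean of all probes of each gene it was -0.24 to -0.01, so that the sign turned. The differences between miR-489 and miR-504 were small for both genes, 0.06 to 0.14 for the 4 ACTB probes and -0.18 to -0.08 for the 3 ACTG1 probes (limma adjusted p = 0.503 to 0.776 for ACTG1).

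PFN1, the profilin that loads actin monomers onto growing filaments, stayed close to the array median. Its 2 probes, 11 bases apart, gave -0.04 to 0.10 over all arrays and were within 0.03 of each other on every array. After miR-504 both had a mean of 0.03 (limma adjusted p = 0.796 and 0.804). Between miR-489 and miR-504 the brighter one differed by -0.00111 (95% interval -0.29 to 0.29). With loess, total-signal centring or the deposited ratios all 8 values were below 0, at -0.26 to -0.09.

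TPM1, a tropomyosin gene that makes many splice forms, had 6 probes spread over a region of chromosome 15. Its brightest probe (A_23_P391586) gave 0.17, -0.31, -0.03 and -0.000484 in array order. Probes A_23_P206018 and A_24_P44462, 621 and 10541 bases away from it, were higher than control on all arrays, at 0.28 to 0.74 and 0.17 to 0.59. Probe A_24_P924721, 23136 bases away, gave -0.43 to 0.02. In FaDu all 6 probes were higher after miR-489 than after miR-504, by 0.34 to 0.48. In HSC3 the same differences were -0.03 to 0.19. Over both lines the differences were 0.21 to 0.32 and none was called (limma adjusted p = 0.279 to 0.516), and whether the lines differed in it was not tested. After miR-504 A_23_P206018 and A_24_P44462 were called higher, at 0.40 and 0.33 (limma adjusted p = 0.029 and 0.0479), and A_24_P924721 lower, at -0.42 (limma adjusted p = 0.0158). The 2 higher calls were lost with loess, total-signal centring and the deposited ratios.

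Counted by gene with the brightest probe, 2 of 10 members (CFL2 and MARCKS) were at least 2-fold lower on the FaDu miR-489 array, where 8.84% of all genes were. As this contrast chose both, the count has no further use. MARCKS was the 1 of 9 measured members past 2-fold lower on each of the other arrays, where the shares of all genes were 6.0% (miR-504 in FaDu), 8.19% (miR-489 in HSC3) and 5.12% (miR-504 in HSC3). At least 2-fold higher were 0 members on the FaDu arrays and 1, ACTB, on each HSC3 array. ACTB was chosen for being above 0 on all arrays, so that this count has no further use either. The shares of all genes were 2.85% and 2.35% on the FaDu miR-489 and miR-504 arrays, and 2.71% and 1.97% on the HSC3 miR-489 and miR-504 arrays. With loess, total-signal centring, the deposited ratios or the mean of a gene's probes ACTB was past 2-fold on no array.

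A test of miR-489 against miR-504, in which effects of dye and control common to the arrays cancel, called 230 of 20914 probes (1.1%, limma with the lines as replicates). Blocking on the line, which pairs the arrays by the cells used, called 578. Of the 14 member probes that could be tested 0 were called with or without the block, and 0 had an unadjusted p below 0.05. Over all probes 3869 had such a p without the block and 4243 with it. The 14 were probes of ACTG1, PFN1, CFL1, TPM1 and MARCKSL1, with 6 of them from TPM1. CFL2, MYLK, MARCKS and ACTB had no test here. With any 1 array left out no probe of any gene was called by limma, while 2065 to 3704 had an unadjusted p below 0.05.

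A test of miR-504 against control called 23.4% of probes lower and 26.2% higher, or 4893 and 5488 probes. With total-signal centring the split was 7533 and 3150. Of the 19 member probes tested 2 were lower and 8 higher, namely MARCKS and 1 TPM1 probe against 3 ACTG1, 2 CFL1, 2 TPM1 and 1 CFL2 probe. In this comparison a dye effect of a probe is not removed. At 10 of 19 against 10381 of 20914, the members' share of calls lay near that of all probes. Both CFL1 calls were lost with loess, with total-signal centring and with the deposited ratios. Without the FaDu or the HSC3 miR-504 array, 1 miR-504 array remained and the spread came from the miR-489 pair alone. For CFL2, MYLK and MARCKS that pair holds the value by which they were chosen, so those fits are no further support.

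The other genes of the actin pathway were taken as a list of 60 genes in 9 roles, of which 59 had a probe (none was named ACTC1) and 55 were measured. Their median log2 ratio was 0.21, 0.04, 0.08 and 0.08 in array order, as compared with -0.02, -0.01, -0.02 and -0.01 over all genes. With loess these medians were all below 0. Between miR-489 and miR-504, 0 of 55 were called by limma, and the median difference was 0.11. An unadjusted p below 0.05 was found for 12 of 55 genes, as compared with 3869 of 20914 probes in all.

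LIMK1, LIMK2 and TESK1 are kinases that inactivate cofilin. LIMK1 had log2 ratios of 0.44 in FaDu and -0.04 in HSC3 after miR-489, and of 1.17 and 1.16 after miR-504. Its miR-504 ratio was called (mean 1.17 ± 0.13, limma adjusted p = 0.00268), and the difference between the miRNAs, -0.73 in FaDu and -1.21 in HSC3, was not (limma adjusted p = 0.092). TESK1 was likewise lower after miR-489 than after miR-504, by 0.36 and 0.67 (limma adjusted p = 0.137). LIMK2 was the other way round, higher after miR-489 by 0.62 and 0.50 (limma adjusted p = 0.106). DSTN, the third member of the ADF/cofilin family, was 0.37 and 0.24 higher (limma adjusted p = 0.318).

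In the other roles, the Arp2/3 subunit ARPC2 was higher after miR-489 than after miR-504 by 1.13 in FaDu and 0.42 in HSC3, the serum response factor SRF by 0.74 and 0.40, and the smooth muscle actin ACTA2 by 0.71 and 0.30. PPP1CB, the catalytic subunit of myosin phosphatase, was lower by 0.65 and 0.40 at its brightest probe, but its other 3 probes gave mean differences of -0.23 to 0.07, and 2 of them were called higher than control after miR-504 (limma adjusted p = 0.0233 and 0.0295). The tropomyosins TPM2, TPM3 and TPM4 were 0.23, 0.10 and 0.46 higher in FaDu and 0.40, 0.16 and 0.05 higher in HSC3. None of these was called, the limma adjusted p of ARPC2, SRF, ACTA2 and PPP1CB being 0.147, 0.151, 0.166 and 0.171. After miR-504, 9 of 55 genes were called lower than control and 17 higher by their brightest probe, as compared with 23.4% and 26.2% of all probes.

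**Figure D4:**
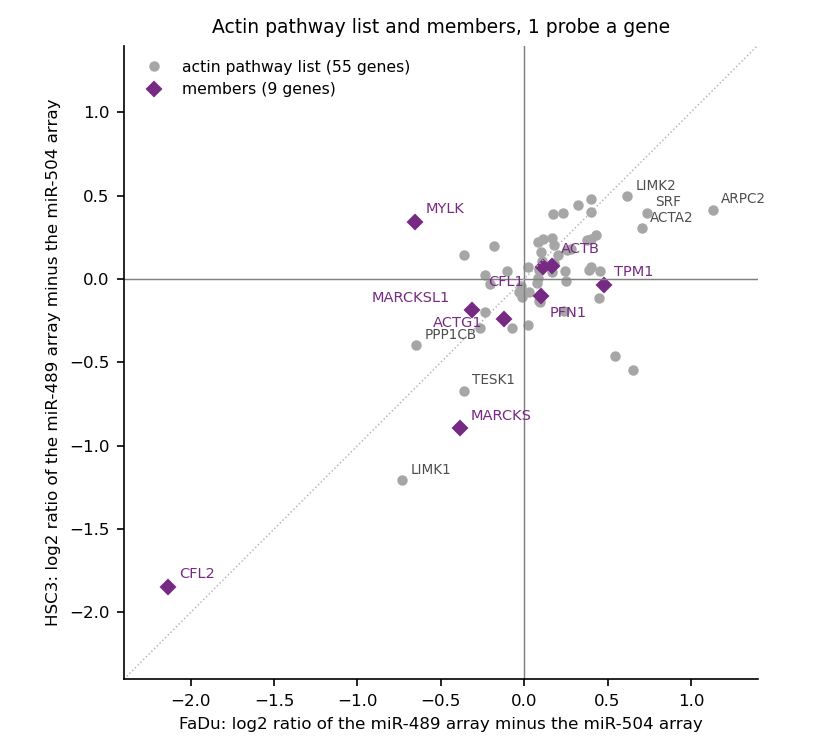
Log2 ratio of the miR-489 array minus that of the miR-504 array in FaDu (horizontal axis) and in HSC3 (vertical axis) for 55 genes of the actin pathway list (grey) and 9 members (purple), 1 probe a gene; the dotted line marks equal values. CFL2 lies at -2.14 and -1.85, beyond LIMK1 at -0.73 and -1.21, while PFN1, CFL1, ACTB and ACTG1 lie within 0.24 of 0 on both axes.

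By likeness of pattern, measured as the root mean square difference of the 4 log2 ratios over 10802 named genes with both channels well above background on all arrays, NOXA1 (0.28) and ATF3 (0.326) were among the genes nearest to CFL2. NOXA1 had ratios of -0.76, 0.89, -1.02 and 0.61. Those nearest to the brightest ACTB probe were SARDH (0.0153), FLJ22531 (0.0326) and RBM4 (0.0452), with ratios of 0.80 to 1.14.

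The control channels allow the levels of the members to be compared between the lines, HSC3 against FaDu, with 2 arrays each. The 2 control signals of a line correlated with r = 0.994 in FaDu and 0.99 in HSC3 over 20914 probes and may come from 1 RNA extract, so that the spread between them may be technical. Many probes differed, 28.7% lower and 21.0% higher in HSC3 (limma, 24119 probes). Of 23 member probes 9 were higher in HSC3 and 3 lower. These include probes of ACTB, CFL2, MYLK and MARCKS, whose choice drew on control signals of all arrays (ACTB) or of the FaDu miR-489 array.

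TPM1, MYLK, CFL2 and MARCKS were higher in HSC3, although the brighter CFL2 probe and MARCKS were not called without the FaDu miR-489 array. Relative to the array median, the brightest TPM1 probe had 5.51 and 6.53 in FaDu and 15.2 and 16.9 in HSC3 (2.67-fold, limma adjusted p = 0.00122). Of the 6 TPM1 probes 5 were called, at 2.04-fold to 3.08-fold, and the sixth, A_24_P924721, was not (1.08-fold, 95% interval of the log2 difference -0.32 to 0.55, limma adjusted p = 0.631). The brighter MYLK probe had 0.47 and 0.399 in FaDu and 1.63 and 1.5 in HSC3 (3.61-fold, limma adjusted p = 0.000497). The second MYLK probe was 2.30-fold higher, with the discordant FaDu signals described above (limma adjusted p = 0.0963, or 0.0347 with the miRNA of the array as a block). CFL2 was 1.54-fold and 2.12-fold higher by its 2 probes (limma adjusted p = 0.0293 and 0.00787), and MARCKS 1.78-fold (limma adjusted p = 0.013).

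The control signal of the FaDu miR-489 array was also part of the ratio that chose CFL2, MYLK and MARCKS. Without that array the log2 difference was 0.70 for the brighter CFL2 probe and 0.66 for MARCKS, and both were no longer called. For the second MYLK probe it was 2.06. Such a fit has 1 FaDu array, so its spread comes from the HSC3 pair alone. It cannot measure the spread in FaDu, where the 2 control signals of that MYLK probe were 1.71 apart, and is no further support. The brighter CFL2 probe also lost its call without the FaDu miR-504 array and without the HSC3 miR-489 array, each of which likewise left 1 array in a line.

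CFL1 and MARCKSL1 went the other way. CFL1 had 33.2 and 35.5 in FaDu and 19.4 and 19.8 in HSC3 by its brighter probe, and was 0.571-fold and 0.575-fold of FaDu by its 2 probes (limma adjusted p = 0.00577 and 0.00828). MARCKSL1 was 0.528-fold of FaDu (limma adjusted p = 0.00804). ACTG1 and PFN1 were not called, with limma adjusted p of 0.269 to 0.912. Together with ACTB they stood at 0.849-fold to 1.08-fold of FaDu over 9 probes. ACTB was chosen by ratios that hold these control signals on all arrays, so its levels are a description and no p is given.

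**Figure D5:**
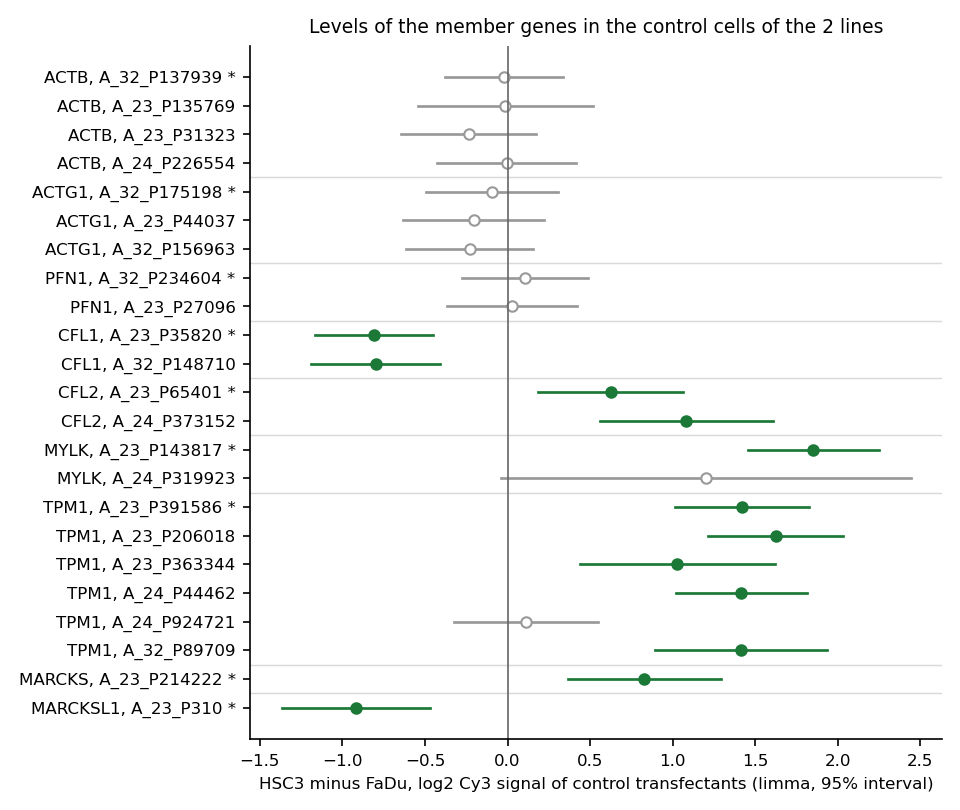
HSC3 minus FaDu in the control transfectants (horizontal axis, log2 Cy3 signal, with the 95% interval of limma) for each member probe (rows; the asterisk marks the brightest probe of a gene). Filled green points passed an adjusted p of 0.05 and open grey points did not. MYLK reaches 1.85 and TPM1 1.62, CFL1 and MARCKSL1 lie at -0.92 to -0.80, and the actins and PFN1 between -0.24 and 0.10. The choice of ACTB drew on control signals of all arrays, and that of CFL2, MYLK and MARCKS on those of the FaDu miR-489 array.

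In the pathway list 15 of 55 genes were higher and 9 lower in HSC3 by their brightest probe, as compared with 21.0% and 28.7% of all probes. The 4 genes for monomer-binding proteins (PFN2, TMSB4X, TMSB10 and CAP1) were higher by the brightest probe, at log2 differences of 0.86, 1.57, 1.04 and 0.47. The second PFN2 probe gave 0.40 and was not called (95% interval -0.09 to 0.90, limma adjusted p = 0.142). The filament-severing protein gelsolin (GSN) was 2.77 higher (limma adjusted p = 0.00013). SRF and its coactivator MKL1, which drive actin genes, were lower in HSC3, with log2 differences of -2.09 at the brightest SRF probe and -1.11 for MKL1 (limma adjusted p = 0.000289 and 0.00235). The other SRF probes were also lower, at -1.47 and -0.57. LIMK1 was lower too, at -1.11 (limma adjusted p = 0.00506).

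SRF binds a short sequence called the CArG box, so the members' promoters were searched for it on both strands. The search ran from 250 bases before to 50 after each annotated start. RefSeq (GRCh38.p14) gave 9 promoters for 8 members, all except ACTB and MYL9. The box was in 2 of them, 1 listed under MYLK and 1 under ACTG1, and in 454 of 35116 promoters (1.29%) in all. A gene can have several starts, and which transcript begins at each of these promoters was not examined. The windows around them, both starting 94 bases before the start annotated for that promoter, lie at chr3:123620593-123620682 and chr17:81512844-81512933 on the minus strand, with the box in capitals.
MYLK: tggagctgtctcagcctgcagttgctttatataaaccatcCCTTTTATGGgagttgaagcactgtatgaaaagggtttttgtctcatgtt
ACTG1: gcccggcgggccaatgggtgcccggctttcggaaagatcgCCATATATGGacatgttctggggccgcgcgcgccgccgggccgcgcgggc
In the control cells, MYLK was 3.61-fold higher in HSC3 by its brighter probe and ACTG1 did not differ detectably. Whether the transcripts read by these probes begin at the promoters shown was not tested.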

How the data were processed

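The deposited scanner files of 4 two-colour Agilent arrays (41000 probe designs, 1 slide, 1 scan) held intensity values of each spot, per the file headers from Feature Extraction 9.5.3.1, although the study's methods name another scanner and program. The authors' deposited log10 ratio, after linear and LOWESS dye normalisation, was used as an alternative and converted to log2. The value table of the series held those ratios unchanged (Cy5 over Cy3, median 0 on each array).

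Outlier spots were left out. The median background was subtracted, and a signal not well above background was set to the higher of itself and the lowest well above it. Log2 ratios (Cy5 over Cy3) were centred on the median of probes well above background in both channels, which removed 0.446 to 0.651. Spots of a probe were averaged, and a gene took the probe with the highest mean log2 Cy3 signal. Tests used limma 3.58.1 in R 4.3.3 with Benjamini-Hochberg adjustment at 0.05 over all probes with Cy3 well above background on all arrays (for the lines, on both arrays of a line). The 2 lines served as replicates of a miRNA; same-line arrays, paired by the cells used, deviated together (r = 0.136 over 20914 probes). The fits were tested on simulated data. The number of arrays limits the precision.

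The members and the gene lists were chosen with earlier results of these data known. Of the pathway list, the named genes were the 2 lowest and 2 highest of each role by the mean miR-489 minus miR-504 difference, at most 25; genes of the list named only as called, TMSB4X and TMSB10 among them, were named after their values were seen. Probe positions come from the files, which state no genome build, so that only distances are given. One gene near CFL2 in pattern is not reported here.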

Additional observations from a re-analysis of the deposited data

Results flagged for a closer look

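The brighter MYLK probe (A_23_P143817) moved in opposite directions in the 2 lines after miR-504. The log2 ratio was 0.613 in FaDu and -0.374 in HSC3, with 1 array in each line. The difference between the lines was not tested.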

How the results depend on the processing

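Of 36 gene values (9 members on 4 arrays), 36 stayed within the spread between spots with mean in place of median spot intensity, 32 with normexp, 17 with the mean of all probes, 9 with normexp and loess or the deposited ratios, 6 with loess or without background subtraction, and 0 with total-signal centring. Total-signal centring moved the median of all probes by -0.17 to -0.21, loess by -0.09 to -0.12 and no background subtraction by 0.08 to 0.11. The count of members at least 2-fold higher, 2 pairs of gene and array, was 0 with loess, normexp and loess, the deposited ratios, total-signal centring and the mean of all probes, and the 5 pairs at least 2-fold lower stayed within 1.5 times. Probes called between miR-489 and miR-504 (230) numbered 390 in the deposited ratios, 350 with loess, 498 without background subtraction, 782 with normexp and loess, 663 with normexp, and 578 with the cell line as a replicate block, and 0 with any array left out. Member probes called after miR-504 (10) numbered 6 in the deposited ratios and 6 with loess, and 4 to 8 with 1 array left out, where all probes called numbered 3498 to 10919 against 10381. Between the lines 9 to 12 member probes were called with 1 array left out, of 8279 to 11935 probes. The miRNA of the array as a replicate block gave 12385 against 11993 probes. MARCKS minus MARCKSL1 on the HSC3 miR-489 array was -2.52 with loess, -2.54 with normexp and loess and -2.56 in the deposited ratios, and ACTB minus ACTG1 there was -0.019 with the mean of all probes.

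The median log2 ratio of the actin pathway list on the FaDu miR-489 array (0.21) was -0.0012 with loess, 0.0027 with normexp and loess, 0.043 in the deposited ratios and 0.0059 with total-signal centring. On the FaDu miR-504 array (0.04) it was 0.13 without background subtraction, -0.055 with loess and -0.14 with total-signal centring. On the HSC3 miR-489 array (0.08) it was -0.045 with loess, -0.045 with normexp and loess, -0.059 in the deposited ratios and -0.097 with total-signal centring, and on the HSC3 miR-504 array (0.08) -0.042, -0.039, -0.032 and -0.11 in that order. The cause of these moves was not tested. Signal over background limited MYL9 and the second probes of MYLK and CFL2.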
